A study of Mus musculus with 20 samples.

Results

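A set of 10 genes for heat shock proteins of the cytosol and the mitochondrion were followed across 20 mouse kidney tumours: Hspa1a, Hspa1b, Hsph1, Dnajb1, Hspb1, Hspa8, Hsp90aa1, Hsp90ab1, Hspe1 and Hspd1. The genes were picked by name, not by a threshold on their values, although earlier results of these data were known. All 10 were found among the 34234 genes of the table, and all 10 passed the filter of at least 1 TPM in at least 5 libraries, which 15422 genes passed. TPM is a gene's share of the library's transcripts after division by gene length. The tumours grew in mice from MSRT1, a cell line labelled renal medullary carcinoma, and each library was made from the total RNA of 1 tumour sample. The 4 groups of 5 libraries came from mice that received vehicle and IgG (Veh_IgG), GYY4137 and IgG (GYY_IgG), vehicle and anti-PD1 (Veh_PD1), or GYY4137 and anti-PD1 (GYY_PD1). GYY4137 is a compound that releases hydrogen sulfide slowly, anti-PD1 is an antibody against a checkpoint receptor of T cells, and IgG is the control antibody. The labels give no mouse strain, age, dose or time, all groups share the 1 cell line, and the replicates are labelled as biological; p-values measure the spread between these samples. In bulk tumour RNA, fewer cells of a type and less RNA per cell cannot be told apart.

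Heat shock proteins are chaperones: they hold, fold or refold other proteins, and many of their genes are switched on by the transcription factor Hsf1 when unfolded protein accumulates. Hsp70 proteins (Hspa1a, Hspa1b, Hspa8) bind exposed stretches of a client with the help of J-domain proteins such as Dnajb1 and are reset by nucleotide exchange factors such as Hsph1, Hsp90 proteins (Hsp90aa1, Hsp90ab1) mature kinases and receptors, the small heat shock protein Hspb1 holds clients without ATP, and Hspd1 with its lid Hspe1 forms the folding chamber of the mitochondrial matrix. Hspa8 and Hsp90ab1 are regarded as constitutive forms, and Hspa1a, Hspa1b and Hsp90aa1 as stress-inducible forms. Tumours often carry high levels of these chaperones.

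Hspa1a and Hspa1b lie on chromosome 17 of the mouse genome (GRCm38; chr17:34969190-34972156 and chr17:34956436-34959238, minus strand) with starts 12918 bases apart. Their longest reading frames in the GENCODE transcripts were 99.4% identical over 1929 aligned bases (11 differences), so reads of this pair can be split between the copies and each copy's own value is uncertain. Hspa1a against Hspa8 gave 73.9% and Hsp90aa1 against Hsp90ab1 75.4% identity. The 250 bases before the start of each copy are shown because the pair shares them almost letter for letter (RefSeq promoter windows, GRCm38.p6, minus strand, chr17:34972157-34972406 for Hspa1a and chr17:34959239-34959488 for Hspa1b). Capitals mark the letters GAANNTTC, a pair of head-to-head units of the heat shock element that Hsf1 binds.
Hspa1a: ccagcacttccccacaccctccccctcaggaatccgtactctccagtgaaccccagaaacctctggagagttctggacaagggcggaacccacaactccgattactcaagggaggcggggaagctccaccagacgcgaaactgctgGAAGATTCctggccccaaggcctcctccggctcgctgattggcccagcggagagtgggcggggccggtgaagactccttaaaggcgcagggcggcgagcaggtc
Hspa1b: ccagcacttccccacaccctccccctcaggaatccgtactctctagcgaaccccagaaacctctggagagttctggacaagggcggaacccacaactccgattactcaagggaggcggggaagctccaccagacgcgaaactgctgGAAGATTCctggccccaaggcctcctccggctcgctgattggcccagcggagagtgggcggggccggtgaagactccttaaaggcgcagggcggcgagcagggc
Counted from 1 at the 5′ end of this window, the Hspa1b window differed from that of Hspa1a by C44T, T47C and T249G only, and GAAGATTC began at position -104 from the start in both.

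GAANNTTC or its partner TTCNNGAA, searched on both strands, occurred in 15.1% of 32851 RefSeq windows that reach from 250 bases before to 50 after a start. By gene, 17.0% of 27025 genes had a match in at least 1 window, and so did 6 of the 7 heat shock genes with an entry. A run of 3 alternating units at this spacing, GAANNTTCNNGAA or TTCNNGAANNTTC, which overlaps the shorter motif, occurred in 0.603% of the windows. By gene it occurred in at least 1 window of 0.662% of the genes, and in windows of Hsph1, Hspe1 and Hspd1. Dnajb1 had no match in its window. The sites below are shown with 30 bases each, motif letters in capitals, for Hspe1 (chr1:55088055-55088084, plus strand), Hsph1 (chr5:149636280-149636309, minus strand) and Hspb1 (chr5:135887811-135887840, plus strand).
Hspe1: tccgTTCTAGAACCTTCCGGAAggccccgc
Hsph1: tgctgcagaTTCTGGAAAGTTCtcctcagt
Hspb1: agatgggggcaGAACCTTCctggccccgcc
Hspe1 and Hspd1 are neighbours on chromosome 1 that face away from each other, and the Hspe1 run, 2 overlapping 3-unit matches, is the same stretch of DNA that the Hspd1 window holds on the other strand. Their annotated gene spans in GENCODE overlap by 112 bases (chr1:55088132-55088243). The sources used here do not state whether counting used strand, so reads of that stretch cannot be assigned to either gene. A motif match describes these letters only. The other genes lie at chr5:149614287-149636376 (Hsph1, minus strand), chr8:83608193-83612653 (Dnajb1, plus), chr5:135887919-135889563 (Hspb1, plus), chr9:40800984-40810087 (Hspa8, plus), chr12:110690605-110702728 (Hsp90aa1, minus) and chr17:45567775-45573271 (Hsp90ab1, minus), with Hspe1 at chr1:55088132-55091307 (plus) and Hspd1 at chr1:55077835-55088243 (minus).

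The libraries differed in content. In all, 13 gene models made of a satellite-like repeat held 3.53% to 13.2% of TPM in Veh_IgG and 25.8% to 83.4% in GYY_PD1, with 5.86% to 54.9% under GYY4137 alone and 1.63% to 59.6% under anti-PD1 alone. TPM values sum to a constant, so a larger share there leaves less for all other genes. Genes with at least 1 TPM numbered 6659 to 15162 per library, and read depth is unknown because the table holds no counts. GYY_PD1 replicates 1 (8198 genes, with a Spearman rho to the other 19 libraries of 0.389 at the median) and 4 (6659 genes) stood apart. Values of the heat shock genes that rest on them are therefore mostly also given without 1 or both. The median log2 TPM of the tested genes averaged 3.10 in Veh_IgG and 1.18 in GYY_PD1, with 2.71 (GYY_IgG) and 2.24 (Veh_PD1) between them, so groups were compared on log2 TPM minus the library's own median, called relative log2 level here. Smarcb1, whose loss defines renal medullary carcinoma, was at 1.17 to 46.6 TPM (median 18.2), Krt8 at a median of 118, Vim at 468, Pax8 at 34.1 and Epcam at 1.75 TPM. None of these genes was at 0 in any library. The samples hold tumour and host cells, and the source of the Smarcb1 RNA was not tested.

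The heat shock genes spanned a wide range of levels in the control tumours. In Veh_IgG the median TPM was 481 for Hsp90ab1, 439 for Hsp90aa1, 426 for Hspa8, 184 for Hspb1, 102 for Hspd1, 97.5 for Hspe1, 24.8 for Hspa1b, 24.4 for Hsph1, 19.4 for Dnajb1 and 3.35 for Hspa1a. The 3 highest held 75.6% ± 3.36 (SD, n = 20) of the summed TPM of the 10 genes. Some neighbours in this order were clearly apart: Hspa8 was above Hspb1, Hspe1 above Hspa1b and Dnajb1 above Hspa1a in 20 of 20 libraries. For others the mean ratio was smaller than its SD. The mean within-library log2 ratio was 0.18 ± 0.24 (SD, n = 20) for Hsp90ab1 over Hsp90aa1 (above in 16 of 20 libraries), 0.07 ± 0.60 for Hspd1 over Hspe1 (13 of 20) and -0.11 ± 0.52 for Hspa1b over Hsph1 (10 of 20). Hsp90aa1 over Hspa8 was -0.21 ± 0.25, and Hspa8 was above in 17 of 20 libraries, although its Veh_IgG median was lower.

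**Figure D1:**
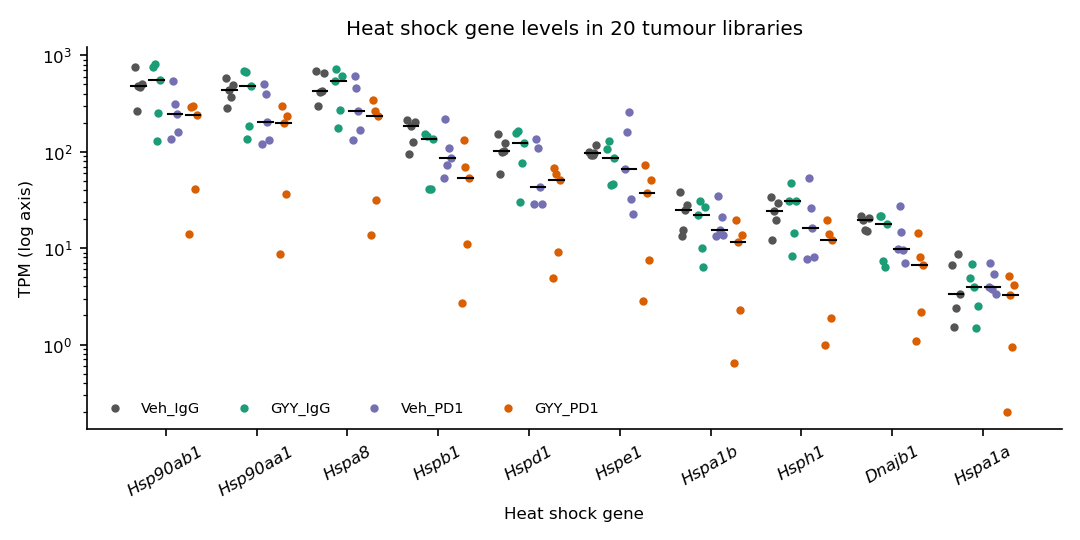
TPM on a log axis for the 10 heat shock genes, ordered by their Veh_IgG median, with 1 point per library (5 in each of 4 groups) and a black bar at each group's median. Hsp90ab1, Hsp90aa1 and Hspa8 lead in every group and Hspa1a is lowest, and the 2 lowest points of every gene are GYY_PD1 replicates 1 and 4.

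No heat shock gene changed in any of the 6 comparisons by limma's test with Benjamini-Hochberg adjustment over the 15422 genes, at an adjusted p under 0.05. The background was as low: 0% of genes passed for GYY_IgG, Veh_PD1 or GYY_PD1 against Veh_IgG, 0% for GYY_PD1 against GYY_IgG, 0% for the interaction (the GYY4137 difference under anti-PD1 minus that under IgG), and 0.00648% (1 gene, lower) for GYY_PD1 against Veh_PD1. At an unadjusted p under 0.05 limma gave 178, 273, 2605, 1507, 376 and 1988 genes in these comparisons, in that order. For GYY_IgG against Veh_IgG, 0 heat shock genes passed that unadjusted mark (background 0.532% higher, 0.622% lower), and for GYY_PD1 against Veh_IgG also 0 (background 5.5% higher, 11.4% lower). For Veh_PD1 against Veh_IgG 1 was higher and 0 lower (background 0.772% and 0.999%). For GYY_PD1 against GYY_IgG 0 were higher and 1 lower (background 2.85% and 6.92%), and for the interaction 0 and 1 (background 0.934% and 1.5%). For GYY_PD1 against Veh_PD1 0 were higher and 4 lower (background 4.47% and 8.42%). Those 4 were Hspa1b, Dnajb1, Hspb1 and Hspe1. Hspa1b had a mean log2 TPM above the library median of 1.96 in Veh_PD1 and 1.24 in GYY_PD1. GYY_PD1 replicate 1 was lowest for Hspa1b at 0.13, where the rest of that group had 1.16 to 1.76. Leaving out 1 library gave Hspa1b differences of -0.94 to -0.44. Genes past the unadjusted mark were not recounted without GYY_PD1 replicates 1 and 4. In this comparison all 10 heat shock genes and 58.8% of all tested genes had a negative difference, with medians of -0.41 and -0.12. Without GYY_PD1 replicates 1 and 4, 9 of 10 were negative, with a median of -0.26.

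No heat shock gene had groups that were fully apart, higher or lower, in any of the 5 pairwise comparisons. The background share of such genes, higher and lower, was 0.415% and 0.454% for GYY_IgG, 0.467% and 0.324% for Veh_PD1, and 1.63% and 1.63% for GYY_PD1, each against Veh_IgG. It was 0.376% and 0.687% for GYY_PD1 against Veh_PD1, and 0.428% and 0.532% for GYY_PD1 against GYY_IgG. The comparisons share control libraries, so their values are not independent of each other.

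**Figure D2:**
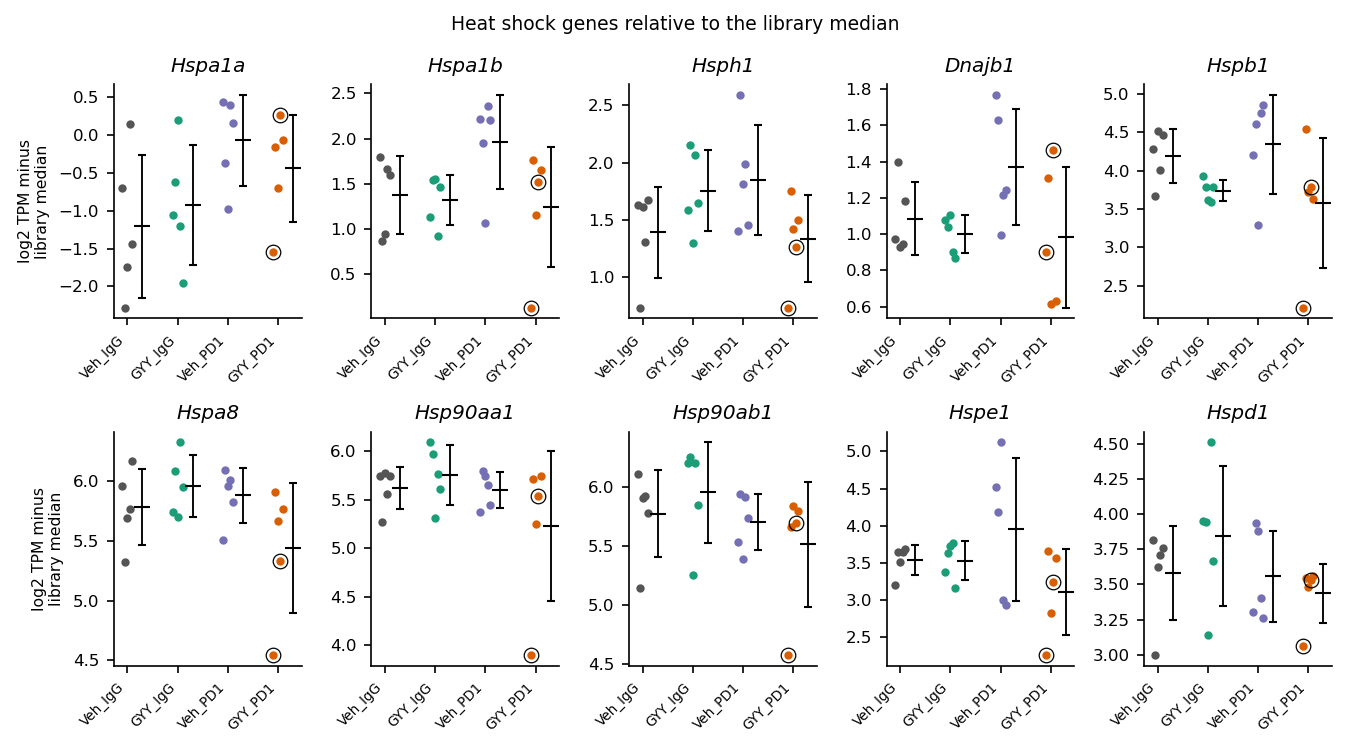
Relative log2 level (log2 TPM minus the library median) of each heat shock gene, with 1 point per library, and the mean with its SD (n = 5) as a black bar to the right of each group. Rings mark GYY_PD1 replicates 1 and 4; replicate 1 is the lowest of its group for all genes but Dnajb1, and the groups overlap for every gene.

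The inducible Hsp70 genes had their highest group mean under anti-PD1 alone, by a margin that did not pass the adjusted test. Hspa1a had relative log2 levels of -0.70, -2.29, -1.75, 0.14 and -1.45 in Veh_IgG replicates 1 to 5. It had -1.05, -0.62, 0.20, -1.21 and -1.96 in GYY_IgG, and 0.43, -0.36, -0.98, 0.39 and 0.17 in Veh_PD1. In GYY_PD1 it had -1.55, -0.15, -0.70, 0.26 and -0.06. In Veh_PD1, 3 libraries thus lay above all Veh_IgG libraries, and the other two lay among them. The difference of Veh_PD1 from Veh_IgG was 1.14 for Hspa1a (SE 0.47, limma unadjusted p = 0.0266, adjusted p = 1.00), and leaving out 1 library gave 0.87 to 1.48. For Hspa1b the levels were 1.80, 0.87, 0.94, 1.66 and 1.60 in Veh_IgG and 1.14, 1.54, 1.55, 0.92 and 1.46 in GYY_IgG. They were 2.22, 1.95, 1.06, 2.36 and 2.21 in Veh_PD1 and 0.13, 1.76, 1.16, 1.52 and 1.65 in GYY_PD1. In Veh_PD1, 4 of 5 libraries were above every Veh_IgG library for Hspa1b, with a difference of 0.58 (SE 0.30, limma unadjusted p = 0.0677, adjusted p = 1.00). The copies added together before the log (Hspa1a+Hspa1b) gave 0.66 (SE 0.31, limma unadjusted p = 0.0491, adjusted p = 1.00).

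The 3 highest Hspa1a and the 3 highest Hspa1b values of Veh_PD1 were those of its libraries rich in satellite-like TPM. The 3 Veh_PD1 libraries over 20% satellite-like TPM (replicates 1, 4 and 5) had Hspa1a at 0.17 to 0.43 and Hspa1b at 2.21 to 2.36. The 2 under it had Hspa1a at -0.98 and -0.36 and Hspa1b at 1.06 and 1.95. All 5 Veh_IgG libraries were under 20%, and among libraries under 20% (2 against 5) the Hspa1a difference was 0.54 (SE 0.61) and that of Hspa1b 0.13 (SE 0.31). No Veh_IgG library was over 20%, so in the libraries over it anti-PD1 and the satellite-like share cannot be told apart. Among marker genes of other cells, 2 were higher (2 of 5 tested T cell genes) and 2 lower (Mrc1 of 6 macrophage genes, at -0.60, and Aqp1 of 5 tested proximal tubule genes, at -1.87) at an unadjusted limma p under 0.05 in Veh_PD1 against Veh_IgG, with 0 adjusted calls in 12 marker lists. Positive and negative differences numbered 3 and 2 for T cell genes (median 0.41) and 0 and 6 for macrophage genes (median -0.53). The proximal tubule list was split as well, with 2 and 3 (median -0.15). The 4 tested neutrophil genes all had a positive difference (median 2.06), none past the unadjusted mark, and their list's summed TPM was 29.6 to 535 in Veh_IgG and 172 to 341 in Veh_PD1. Summed T cell marker TPM was 1.95 to 5.09 in Veh_IgG and 1.17 to 8.87 in Veh_PD1. Summed macrophage marker TPM was 472 to 969.9 and 148 to 621 in the same order, and no marker was at 0 in all libraries. These sums are not relative to the library median. As mean relative log2 levels in the same order, the macrophage list had 2.835 to 3.388 and 1.879 to 3.289. The T cell list had -4.84 to -3.69 and -6.26 to -1.42, and the neutrophil list -0.83 to 3.25 and 1.71 to 3.45. Their part in the result was not tested.

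Hspa8, the constitutive Hsp70 of the cytosol, had a smaller spread within groups than its inducible relatives. Its relative log2 levels were 5.96, 5.32, 5.69, 5.77 and 6.17 in Veh_IgG and 5.74, 6.08, 5.70, 6.32 and 5.95 in GYY_IgG. They were 5.51, 6.09, 5.96, 6.01 and 5.83 in Veh_PD1 and 4.54, 5.91, 5.67, 5.33 and 5.76 in GYY_PD1. Replicate 1 of GYY_PD1 was the lowest of the 20, and the groups overlapped. GYY_PD1 against GYY_IgG gave -0.52 for Hspa8 (SE 0.23, limma unadjusted p = 0.0385, adjusted p = 0.461), with -0.29 without GYY_PD1 replicate 1 and -0.18 without replicates 1 and 4. The within-group SD of Hspa8 was 0.36 on the log2 scale, that of Hspa1b 0.49 and that of Hspa1a 0.77, with a median of 0.51 over all tested genes. Without GYY_PD1 replicates 1 and 4 these were 0.25, 0.41 and 0.75, with a median of 0.32, so that Hspa1b moved from below the median to above it.

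Dnajb1, which hands clients to Hsp70, had a within-group SD of 0.28, the smallest of the 10 genes over 20 libraries. Without GYY_PD1 replicates 1 and 4 it was 0.26, and Hsp90aa1 and Hspa8 were as low at 0.25. Its relative log2 levels were 0.97, 1.40, 0.93, 0.94 and 1.18 in Veh_IgG and 1.08, 1.04, 1.11, 0.90 and 0.87 in GYY_IgG. They were 1.77, 1.63, 0.99, 1.22 and 1.24 in Veh_PD1 and 0.90, 1.31, 0.61, 1.47 and 0.63 in GYY_PD1. Replicates 1 and 2 of Veh_PD1 were the highest of all libraries. GYY_PD1 against Veh_PD1 gave -0.39 for Dnajb1 (SE 0.18, limma unadjusted p = 0.0430, adjusted p = 0.384), and -0.52 without GYY_PD1 replicates 1 and 4. Hsph1, the exchange factor, had 1.63, 0.73, 1.61, 1.31 and 1.68 in Veh_IgG and 1.59, 2.15, 1.30, 2.07 and 1.65 in GYY_IgG. It had 1.41, 2.59, 1.81, 1.99 and 1.45 in Veh_PD1 and 0.73, 1.75, 1.42, 1.26 and 1.50 in GYY_PD1. Each agent alone thus had the higher mean for Hsph1, by 0.36 (SE 0.25) for GYY_IgG and 0.46 (SE 0.25) for Veh_PD1, while both together gave -0.06 (SE 0.25), all against Veh_IgG and none past the adjusted test. The interaction was -0.88 for Hsph1 (SE 0.35, limma unadjusted p = 0.0225, adjusted p = 0.875), and -0.65 without GYY_PD1 replicates 1 and 4. The interaction was negative for all 10 genes and for 58.5% of all tested genes, with medians of -0.56 and -0.11. Without these replicates it was negative for 9 of 10, all but Hspb1 at 0.07, with a median of -0.34.

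Hspb1, the small heat shock protein, ranged widely under both anti-PD1 conditions. Its relative log2 levels were 4.28, 3.67, 4.52, 4.01 and 4.47 in Veh_IgG and 3.92, 3.79, 3.61, 3.59 and 3.78 in GYY_IgG. They were 4.21, 4.60, 3.28, 4.76 and 4.86 in Veh_PD1 and 2.21, 4.54, 3.72, 3.79 and 3.62 in GYY_PD1. Only replicate 2 of Veh_IgG overlapped the GYY_IgG values, and the difference of GYY_IgG from Veh_IgG was -0.45 for Hspb1 (SE 0.34, limma unadjusted p = 0.205, adjusted p = 1.00). That SE pools the spread of all 4 groups. The Hspb1 SD was 0.35 in Veh_IgG and 0.14 in GYY_IgG, against 0.64 in Veh_PD1 and 0.85 in GYY_PD1. In both wide groups 1 library lay below the rest. It was replicate 1 of GYY_PD1 at 2.21 (others 3.62 to 4.54) and replicate 3 of Veh_PD1 at 3.28 (others 4.21 to 4.86). In 33 alternative settings, among them a fit of only the groups compared, 0 heat shock genes were called for this comparison. GYY_PD1 against Veh_PD1 gave -0.77 for Hspb1 (SE 0.34, limma unadjusted p = 0.0369, adjusted p = 0.376), with -0.43 without GYY_PD1 replicate 1 and -0.38 without replicates 1 and 4. The processed pseudogene Hsp25-ps1 was listed at 0 to 4.79 TPM (median 1.58).

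The Hsp90 genes showed no group difference past an unadjusted p of 0.05. Hsp90aa1 had a mean relative log2 level of 5.62 ± 0.21 (SD, n = 5) in Veh_IgG, against 5.75 ± 0.31 (GYY_IgG), 5.60 ± 0.19 (Veh_PD1) and 5.23 ± 0.77 (GYY_PD1). Hsp90ab1 had 5.77 ± 0.37, 5.95 ± 0.42, 5.70 ± 0.24 and 5.51 ± 0.53 in the same order. Their low GYY_PD1 means and wide SDs rested on replicate 1, at 3.90 for Hsp90aa1 and 4.57 for Hsp90ab1, where the other 4 libraries had 5.25 to 5.75 and 5.66 to 5.84. In GYY_PD1 against Veh_IgG the difference was -0.39 for Hsp90aa1 and -0.26 for Hsp90ab1, and without replicate 1 it was -0.06 and -0.02.

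Hspe1, the lid of the mitochondrial chaperonin, was high in 3 tumours given anti-PD1 alone. Its relative log2 levels were 3.20, 3.64, 3.51, 3.64 and 3.69 in Veh_IgG and 3.38, 3.63, 3.73, 3.77 and 3.16 in GYY_IgG. They were 4.52, 4.18, 5.12, 3.01 and 2.93 in Veh_PD1 and 2.26, 3.66, 2.83, 3.25 and 3.56 in GYY_PD1. Replicates 1, 2 and 3 of Veh_PD1 lay above the other 17 libraries, and replicates 4 and 5 lay below all Veh_IgG libraries. The Hspe1 difference of Veh_PD1 from Veh_IgG, singled out after its values were seen, was 0.41 (SE 0.35, limma unadjusted p = 0.254), and 0.12 without Veh_PD1 replicate 3. Among libraries under 20% satellite-like TPM it was 1.11 (SE 0.24, limma adjusted p = 0.272). That value rests on 2 Veh_PD1 libraries, replicates 2 and 3, against 5 of Veh_IgG. GYY_PD1 against Veh_PD1 gave -0.84 for Hspe1 (SE 0.35, limma unadjusted p = 0.0278, adjusted p = 0.364), and -0.55 without Veh_PD1 replicate 3. Its partner Hspd1 had levels of 3.30, 3.94, 3.88, 3.41 and 3.27 in Veh_PD1 against 3.82, 3.00, 3.62, 3.71 and 3.76 in Veh_IgG. Replicates 2 and 3 of Veh_PD1 were above every Veh_IgG library for Hspd1 as well, and replicate 1 was not. The group means of Hspd1 differed by -0.02 (SE 0.22). The processed pseudogene Hspe1-ps3 was at a median of 0 TPM and reached 11.6 TPM in GYY_PD1 replicate 1.

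The combination was also set against neither agent for all 10 genes. GYY_PD1 minus Veh_IgG was 0.77 (SE 0.47) for Hspa1a, -0.13 (0.30) for Hspa1b, -0.06 (0.25) for Hsph1, -0.10 (0.18) for Dnajb1 and -0.61 (0.34) for Hspb1. It was -0.34 (0.23) for Hspa8, -0.39 (0.27) for Hsp90aa1, -0.26 (0.26) for Hsp90ab1, -0.43 (0.35) for Hspe1 and -0.14 (0.22) for Hspd1, with limma adjusted p between 0.338 and 0.901. The difference was negative for 9 of the 10 genes and for 62.4% of all tested genes, with medians of -0.20 and -0.17. Without GYY_PD1 replicates 1 and 4 it was negative for 7 of 10, with a median of -0.03. The values without both were 0.90, 0.15, 0.17, -0.23 and -0.23 for Hspa1a, Hspa1b, Hsph1, Dnajb1 and Hspb1, and between -0.19 (Hspe1) and -0.00 (Hspa8) for the other five. The deposited log2 scale, which keeps the shift of the library medians, was the only one of 32 alternative settings in which any heat shock gene passed: 9 of 10 were lower, all but Hspa1a, at -1.97 for Hsph1 to -2.53 for Hspb1. On that scale 69.9% of all tested genes were called lower. For GYY_PD1 against Veh_PD1 and GYY_IgG it called 0 heat shock genes (background 0.0778% and 0.0648% lower). Beside this comparison, 4 of 5 erythroid markers were lower and 4 of 5 tested T cell markers higher at an unadjusted limma p under 0.05, with 0 adjusted calls. The other marker genes past that mark were the neutrophil gene Csf3r (1.47), the tumour epithelial gene Pax8 (-0.43), S100a4 of the mesenchymal list (-0.88) and the macrophage gene Mrc1 (-0.83). Their lists were split. Positive and negative differences numbered 1 and 3 for neutrophil genes (median -0.52) and 2 and 4 for tumour epithelial genes (median -0.06). They numbered 1 and 2 for mesenchymal genes (median -0.22) and 1 and 5 for macrophage genes (median -0.26). Markers were not recomputed without GYY_PD1 replicates 1 and 4. Summed erythroid marker TPM was 136 to 304 in Veh_IgG and 0.964 to 62.0 in GYY_PD1, and summed T cell marker TPM was 1.95 to 5.09 and 0.910 to 13.7. As mean relative log2 levels in the same order, the erythroid list had 0.73 to 1.78 and -6.35 to 0.02. The T cell list had -4.84 to -3.69 and -3.47 to -0.45. Their part in the result was not tested.

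**Figure D3:**
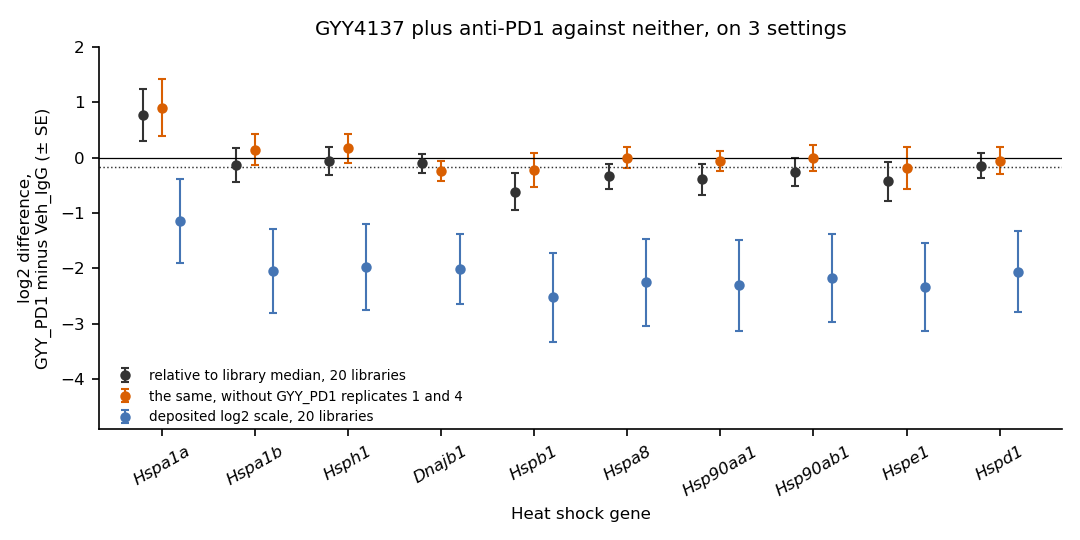
Difference of GYY_PD1 from Veh_IgG for each heat shock gene on the log2 scale, with its limma standard error, under 3 settings; the dotted line is the median of all tested genes relative to the library median (-0.17). On the relative scale Hspa1a lies at 0.77 or 0.90 and the others between -0.61 and 0.17, while on the deposited scale the values run from -2.53 (Hspb1) to -1.15 (Hspa1a).

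In a ratio of 2 heat shock genes within a library, any factor common to the library cancels. Hspa1a plus Hspa1b stood at 0.0657, 0.0508, 0.0431, 0.0784 and 0.0472 of the Hspa8 level in Veh_IgG replicates 1 to 5, in TPM. In Veh_PD1 the ratio was 0.132, 0.0681, 0.0417, 0.100 and 0.101, so that 3 of 5 libraries lay above the whole of Veh_IgG. These were replicates 1, 4 and 5, with 59.6%, 40.7% and 47.7% satellite-like TPM, where Veh_IgG reached at most 13.2%. Replicates 2 and 3, at 1.63% and 12.6%, lay within and below the Veh_IgG range. In GYY_IgG the libraries richest in satellite-like TPM, replicates 3 and 4, had the highest and lowest ratio of their group, 0.0786 and 0.0291. In GYY_PD1 the richest, replicate 4, had the highest, 0.101. The part of the satellite-like share in this ratio was not tested. The group medians were 0.0508 (Veh_IgG), 0.0502 (GYY_IgG), 0.100 (Veh_PD1) and 0.0714 (GYY_PD1). The difference of Veh_PD1 from Veh_IgG was 0.57 on the log2 scale (two-sided exact permutation p = 0.119, adjusted p = 0.476 over the 15 ratio tests). Hspe1 over Hspd1 was 0.651, 1.56, 0.927, 0.955 and 0.953 in Veh_IgG and 2.32, 1.18, 2.36, 0.757 and 0.792 in Veh_PD1, with a log2 difference of 0.44 (exact permutation p = 0.302, adjusted p = 0.748). Hsp90aa1 over Hsp90ab1 had medians between 0.852 and 0.914 in the 4 groups. None of the 15 ratio tests passed, with adjusted p of 0.476 or more. With 5 against 5 libraries the smallest exact permutation p is 0.00794. A single ratio alone at that value would still not pass after adjustment over the 15 tests. These tests therefore could not have called a difference in a single ratio.

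**Figure D4:**
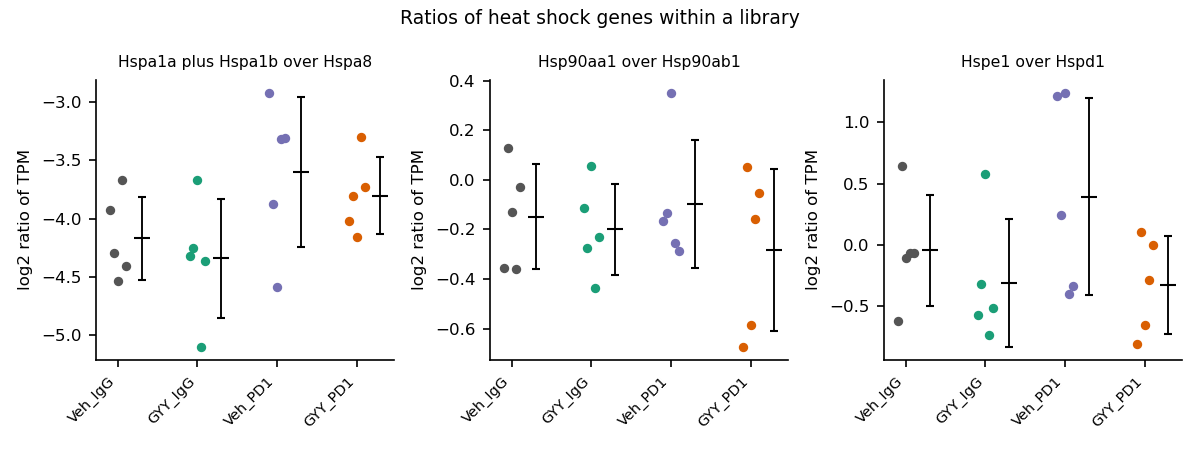
Within-library log2 ratios of Hspa1a plus Hspa1b over Hspa8, Hsp90aa1 over Hsp90ab1, and Hspe1 over Hspd1, with 1 point per library and the mean with its SD (n = 5) to the right of each group. Veh_PD1 holds the highest values of all 3 ratios, and all groups overlap.

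From tumour to tumour, some of the heat shock genes varied together. Of the 45 pairs, 14 had an adjusted p under 0.05 for Pearson's r over the 20 libraries (permutation test, 100000 resamples, Benjamini-Hochberg over the 45 pairs) and 12 for Spearman's rho. The points share the library median that was subtracted, and libraries were shuffled across the 4 groups. On deviations from the group means 19 pairs were called, and 12 without GYY_PD1 replicates 1 and 4. Pairs among all tested genes were not counted, so whether 14 of 45 is particular to the heat shock genes is unknown. Hsph1, Hspa8, Hsp90aa1, Hsp90ab1 and Hspd1 were correlated in all 10 of their pairs. Hsph1 with Hspa8 had r = 0.82 and rho = 0.90 (adjusted permutation p = 0.000900 and 0.000225), r = 0.88 without the 2 libraries farthest from the Hsph1 median, and r = 0.81 and 0.94 within the libraries under and over 20% satellite-like TPM (n = 10 each). Hsp90aa1 with Hsp90ab1 had r = 0.85 and rho = 0.76 (adjusted permutation p = 0.00135 and 0.00172), r = 0.79 without its 2 farthest libraries, and 0.78 and 0.89 within those classes. The 0.89 was 0.59 without GYY_PD1 replicates 1 and 4 (n = 8), and that of Hsph1 with Hspa8 was 0.89 in the same 8 libraries.

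Hspa1b was also correlated with Hspa1a and with Hspb1, while Hspa1a with Hspb1 had r = 0.35 and rho = 0.33 (adjusted permutation p = 0.221 and 0.349). Hspa1a with Hspa1b had r = 0.72 and rho = 0.75 (adjusted permutation p = 0.00191 and 0.00172), r = 0.77 without the 2 farthest libraries, and 0.67 and 0.92 within the classes; reads shared by the near-identical copies enter this value. Hspa1b with Hspb1 had r = 0.79 and rho = 0.72 (adjusted permutation p = 0.00135 and 0.00296), r = 0.59 without the 2 farthest libraries, and 0.48 and 0.92 within the classes. Hspa1a with Hspa8 had r = 0.12 and rho = -0.03 (adjusted permutation p = 0.700 and 0.966). Hspe1 and Hspd1, the neighbours that share the run of units printed above, had r = 0.34 and rho = 0.32 (permutation p = 0.142 and 0.163, adjusted p = 0.228 and 0.349), r = 0.12 without the 2 farthest libraries, and 0.19 and 0.31 within the classes (0.12 for the latter without GYY_PD1 replicates 1 and 4). The pairs of Hspb1 with Hspa8 and Hsp90ab1 passed for r but not for rho, and rested on GYY_PD1 replicates 1 and 4: without both, r fell from 0.60 to 0.14 and from 0.57 to 0.21. The median r over the 45 pairs was 0.42 with all libraries and 0.16 without these 2.

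**Figure D5:**
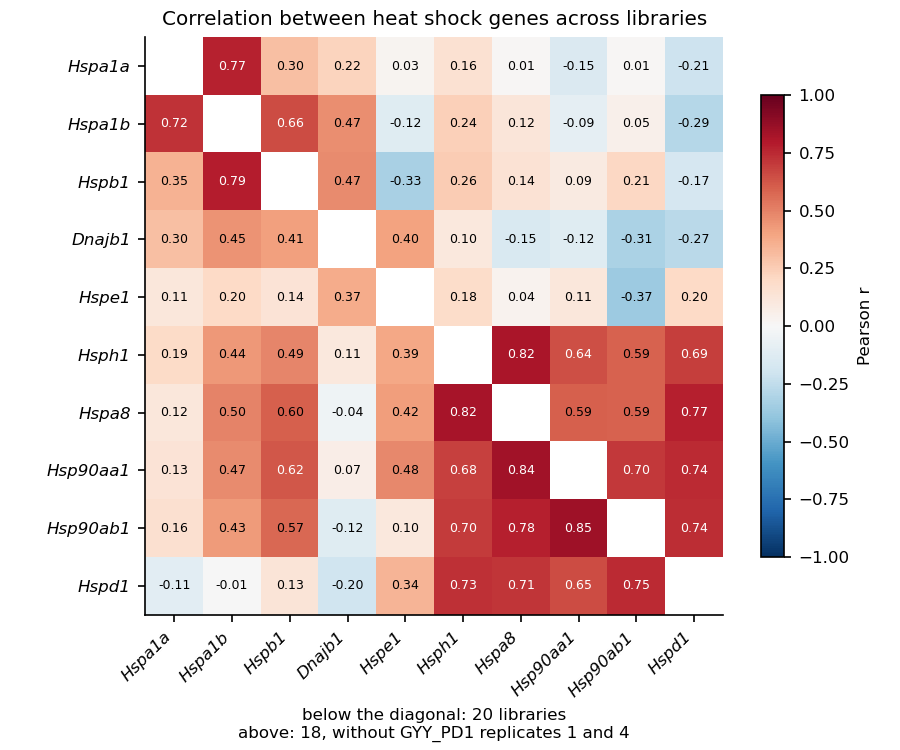
Pearson r between each pair of heat shock genes over the relative log2 levels, below the diagonal for 20 libraries and above it for the 18 libraries without GYY_PD1 replicates 1 and 4. Pairs among Hsph1, Hspa8, Hsp90aa1, Hsp90ab1 and Hspd1 have r of 0.59 or more on both sides, as does Hspa1b with Hspa1a and Hspb1.

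Other genes of the chaperone system were read from 8 lists, and none had a member past limma's adjusted test in any of the 6 comparisons. In GYY_PD1 against Veh_IgG, 62.4% of all tested genes had a negative difference (median -0.17), 5.5% were higher and 11.4% lower at an unadjusted p under 0.05, and the counts below stand beside these shares. The lists were not recomputed without GYY_PD1 replicates 1 and 4, so how far their values rest on these libraries is unknown. Of 18 tested other Hsf1 targets 15 had a negative difference (median -0.21), with 0 higher and 1 lower at the unadjusted mark. That gene was Fkbp4, a co-chaperone of Hsp90, at -0.56 (SE 0.21, limma adjusted p = 0.250), and the ubiquitin gene Ubb and the Hsp70 co-chaperone Bag3 had -0.53 and -0.48. Among 4 tested genes for heat shock factors and their binding protein, Hsf1 had -0.23 (SE 0.11, limma adjusted p = 0.309), Hsbp1 had -0.66 (the 1 lower at the unadjusted mark), Hsf4 had 0.04, and Hsf1 stood at a median of 26.0 TPM over the libraries. Of 14 Hsp90 co-chaperones, 12 had a negative difference (median -0.28) and 3 were lower at an unadjusted p under 0.05: Fkbp5 at -0.84, Fkbp4 and Sugt1 at -0.38. Of 17 Hsp70 co-chaperones, 12 had a negative difference (median -0.13), and Hspa14 with -0.87 was the 1 lower at that mark.

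In the same comparison (62.4% of all genes negative, 11.4% lower at the unadjusted mark), of 14 genes of the TRiC chaperonin and prefoldin, which fold actin and tubulin, 12 had a negative difference (median -0.37) and 4 were lower at an unadjusted p under 0.05, among them Pfdn1 at -0.58, Cct3 at -0.41 and Cct6a at -0.45. Of 9 mitochondrial chaperones and proteases, 8 had a negative difference (median -0.29) and 1 was lower, the protease subunit Clpp at -0.58. The TRiC and prefoldin list had a mean relative log2 level of 2.89 at the GYY_PD1 median and 1.91 in its lowest library. The mitochondrial list had 1.47 and 0.28. Their Veh_IgG medians were 3.12 and 1.68. The 7 tested small heat shock proteins had a median of 0.03 and none past the mark, with Hspb8 at -0.31 and Hspb2 at 1.21 (SE 0.68). Of 15 immediate early genes, which respond within minutes to stress and growth signals, Egr2 was higher at 1.32 and Klf2 lower at -0.91 by the unadjusted mark. In GYY_IgG and Veh_PD1 against Veh_IgG, 0 members of the 8 lists passed the unadjusted mark, beside 1.15% and 1.77% of all tested genes.

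The genes whose relative log2 level was most like the mean of Hspa1a and Hspa1b over the 20 libraries were Srfbp1 (r = 0.77), Fgd3 (r = 0.77), Ankrd1 (r = 0.75), Il1b (r = 0.70) and Hcar2 (r = 0.70). They are the 5 best of the genes with a mean of at least 5 TPM, which makes these values a description. Without GYY_PD1 replicates 1 and 4 the same r was 0.75, 0.75, 0.69, 0.65 and 0.66. Il1b, an inflammatory cytokine, had a mean TPM of 14.9 (Veh_IgG), 28.7 (GYY_IgG), 20.6 (Veh_PD1) and 21.0 (GYY_PD1).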

How the data were processed

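RNA extracted with QIAzol was made into Nextera XT libraries from 1.0 ug of total RNA, per the labels' protocols. The submitters' processing notes name HTSeq 0.11.0, Salmon 0.14.1, 2 read trimmers (fastp, cutadapt) and mm10 as the build, but do not say which tool made the deposited values. The authors deposited log2 TPM values per gene, in which unexpressed genes stand at a floor of -8.879. No read count was used here. All 20 columns matched a sample by its label.

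Log2 TPM minus the library's median over 15422 tested genes (at least 1 TPM in at least 5 libraries) was fitted with limma 3.58.1 (R 4.3.3) in 1 model of 4 group means with a variance trend, and p was adjusted over all tested genes by Benjamini-Hochberg with a threshold of 0.05. Ratios were compared by exact permutation of 5 against 5 libraries, and pairs by 100000 permutations (scipy 1.17.1). In simulated data for GYY_PD1 against Veh_IgG (15422 genes), 75% of 100 changes of 2 and 88% of 100 changes of 4 on the log2 scale were recovered, with 12 false calls. The changes were planted in genes with a mean of at least 5 TPM. The noise was independent, with an equal, capped spread in all groups, so outlying libraries were not modelled. Recovery of changes as small as those of the heat shock genes (at most 1.14 in the main fit) was not simulated. The 13 satellite-like gene models were found by their internal repeat, and 20% of TPM divided 10 libraries from 10. Promoters came from RefSeq (GRCm38.p6) and gene positions from GENCODE (GRCm38), which named 33908 of 34234 genes.

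The members and gene lists were chosen with earlier results of these data known. Named beside the 10 members are up to 3 genes per list with the smallest p in GYY_PD1 against Veh_IgG, the 5 genes most like Hspa1a and Hspa1b, and Smarcb1. Single cell type markers named in the text were chosen after their values were seen. Alternatives were another scale, filter, pseudocount or model, a replicate block, and leaving out libraries.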

Additional observations from a re-analysis of the deposited data

Results flagged for a closer look

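Of 52 groups of 5 libraries, 5 held a value apart from the rest by Dixon's test at its 95% critical value, and chance sets apart about 1 in 20 groups. GYY_PD1 replicate 1 was low for Hsp90aa1 at a relative log2 level of 3.90 (the other 4 libraries 5.25 to 5.75), for Hsp90ab1 at 4.57 (others 5.66 to 5.84) and for Hspd1 at 3.06 (others 3.48 to 3.56). Veh_IgG replicate 2 was low for Hspd1 at 3.00 (others 3.62 to 3.82). The log2 ratio of Hsp90aa1 over Hsp90ab1 was high in Veh_PD1 replicate 3, at 0.35 (others -0.28 to -0.14).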

How the results depend on the processing

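Of 1191 differences and ratios recomputed over 46 results, 1144 kept their direction and side of the threshold, 38 changed sign and 9 newly passed, all 9 for GYY_PD1 against Veh_IgG on the deposited log2 scale. The cause of the changes was not tested. On that scale the signs turned for Hsph1 in GYY_IgG against Veh_IgG (-0.027), for Hspa1b (-0.28), Hsph1 (-0.40) and Hspe1 (-0.45) in Veh_PD1 against Veh_IgG, and for Hspa1a in GYY_PD1 against Veh_IgG (-1.15) and GYY_IgG (-1.04), and all 45 pairs were called. In GYY_PD1 against Veh_IgG, Hspa1b turned to 0.082 with library weights, 0.15 without GYY_PD1 replicates 1 and 4, 0.15 without GYY_PD1 replicate 1 and GYY_IgG replicate 5, 0.19 with coding-rescaled values without replicates 1 and 4 (an alternative chosen after seeing the data) and 0.025 summed with Hspa1a. Hsph1 turned to 0.049, 0.17, 0.093 and 0.21 in the first 4 of these settings. In the added setting Hspa8 and Hsp90ab1 turned to 0.041 and 0.038, and Hspd1 against Veh_PD1 to 0.0099. Among ratios, log2(TPM + 1) turned Hspa1a plus Hspa1b over Hspa8 in GYY_PD1 against Veh_PD1 to 0.056 and Hspe1 over Hspd1 in GYY_PD1 against GYY_IgG to 0.026. The latter was 0.13, and Hsp90aa1 over Hsp90ab1 0.0046, without GYY_PD1 replicates 1 and 4.

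Leaving out 1 library at a time gave -0.23 to 0.015 for Hsp90ab1 in Veh_PD1 against Veh_IgG, and -0.26 to 0.15 (Hspa1b) and -0.22 to 0.093 (Hsph1) in GYY_PD1 against Veh_IgG. It gave -0.062 to 0.12, -0.12 to 0.018 and -0.17 to 0.014 for Hsp90aa1 over Hsp90ab1 in Veh_PD1 and GYY_IgG against Veh_IgG and GYY_PD1 against GYY_IgG. It gave -0.12 to 0.21 for Hspe1 over Hspd1 in GYY_PD1 against GYY_IgG, and -0.34 to 0.018 for Hspa1a plus Hspa1b over Hspa8 in GYY_IgG against Veh_IgG.

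Counts over all genes moved more. For GYY_PD1 against Veh_IgG limma's 0 became 10831 on the deposited scale, 41 with log2(TPM + 1), 13 with no filter, 1 at 5 TPM, 18 with library weights, 2 without the variance trend, 8 with only both groups, 1 without GYY_PD1 replicate 1 and GYY_IgG replicate 5, and 0 to 8 leaving out 1 library. For GYY_PD1 against Veh_PD1 the 1 became 12 on the deposited scale, 6 with weights, 3 with only both groups, 2 without that pair of libraries and 0 to 7 leaving out 1. It became 0 with coding-rescaled values, with log2(TPM + 1), without the trend, and without GYY_PD1 replicates 1 and 4 on either scale. For GYY_PD1 against GYY_IgG the 0 became 10, 6 and 4 on the deposited scale, with weights and with only both groups, and 0 to 3 leaving out 1 library, as for the interaction. For GYY_IgG against Veh_IgG it became 2 with only both groups and 1 without that pair of libraries.

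Same-numbered replicates did not deviate together (r of -0.08 to 0.11, over 0.1 in 1 of 25), so the numbers were not taken to pair the samples. With the replicate block 3 genes were called for GYY_PD1 against Veh_IgG and 0 for GYY_PD1 against Veh_PD1, and no heat shock gene.

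Depth is unknown, and 5 libraries a group, bulk RNA and the uneven satellite-like share limit what can be told. A comparison among libraries under 20% satellite-like TPM was not possible for GYY_PD1, which has none.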
